A study of Oryctolagus cuniculus with 16 samples.

Results

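Iron uptake, storage, export and recycling are represented here by 10 genes, *TFRC*, *STEAP3*, *SLC25A37*, *SLC40A1*, *CP*, *HMOX1*, *FTH1*, *NCOA4*, *IREB2* and *ACO1*. They were found by their symbols among the 20255 genes of the count table of femoral head tissue, and each symbol stood on 1 row. The tissue came from 8 rabbits, 5 of the Perthes group and 3 wild-type controls, and total RNA was sequenced after removal of ribosomal RNA. The disease was modeled by surgery at 8 weeks of age, in which the femoral neck was ligated and the ligamentum teres transected so that blood no longer reached the epiphysis. Both groups came from wild-type rabbits, so the term genotype in the sample labels stands for the operation. A sham operation of the controls, the interval between surgery and sampling, and the strain are not given in the sources used here. The question put to these genes was which of them differed in transcript level between the necrotic and the healthy femoral head.

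Iron circulates bound to transferrin and enters cells through the transferrin receptor, after which a reductase of the STEAP family reduces it inside the endosome. Most of it is used in the bone marrow, where red cell precursors carry it into mitochondria to make heme. Macrophages close the cycle: they take up old red cells, open the heme ring with heme oxygenase, and either keep the iron in ferritin or return it through ferroportin to the plasma, where ceruloplasmin oxidizes it. Iron regulatory proteins bind hairpins in the transcripts of some of these genes. When iron is scarce, this steadies the receptor transcript and blocks translation of ferritin.

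All 10 genes passed the filter on low counts. In Perthes rabbits the ferritin heavy chain gene *FTH1* was 4.36-fold higher, the heme oxygenase gene *HMOX1* 5.33-fold higher and the iron regulatory gene *ACO1* 2.24-fold higher than in controls. The mitochondrial iron carrier gene *SLC25A37* was 7.32-fold lower, the ferritin receptor gene *NCOA4* 1.93-fold lower and the transferrin receptor gene *TFRC* 1.59-fold lower. *STEAP3*, *SLC40A1*, *CP* and *IREB2* did not pass the test. Thus 3 of 10 were called higher and 3 of 10 lower by edgeR's quasi-likelihood test at an adjusted p below 0.05, where 6.21% of all 15305 genes tested were called higher and 8.86% lower. The groups did not overlap in any rabbit for 3 genes that were higher and 4 that were lower, against 11.2% and 13.9% of all genes. The median log2 fold change of the 10 genes was -0.09, beside 0.025 over all genes tested. DESeq2 at the limits the study set (adjusted p under 1e-05, log2 change over 2 in size) called 2 of the 10 genes higher and 0 lower. The 2 genes were *FTH1* and *HMOX1*. By the same limits 0.686% of all genes were called higher and 0.621% lower. At an adjusted p below 0.05 DESeq2 called 3 of the 10 higher and 3 lower, and 3636 of all 15305 genes. Of the 3 lower genes, *SLC25A37* (log2 fold change -2.88, DESeq2 adjusted p = 3.98e-05) met the study's limit on size but not on adjusted p. With the study's limits edgeR called 0 genes of the whole table, where 4883 had an unadjusted p below 0.05.

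**Figure D1:**
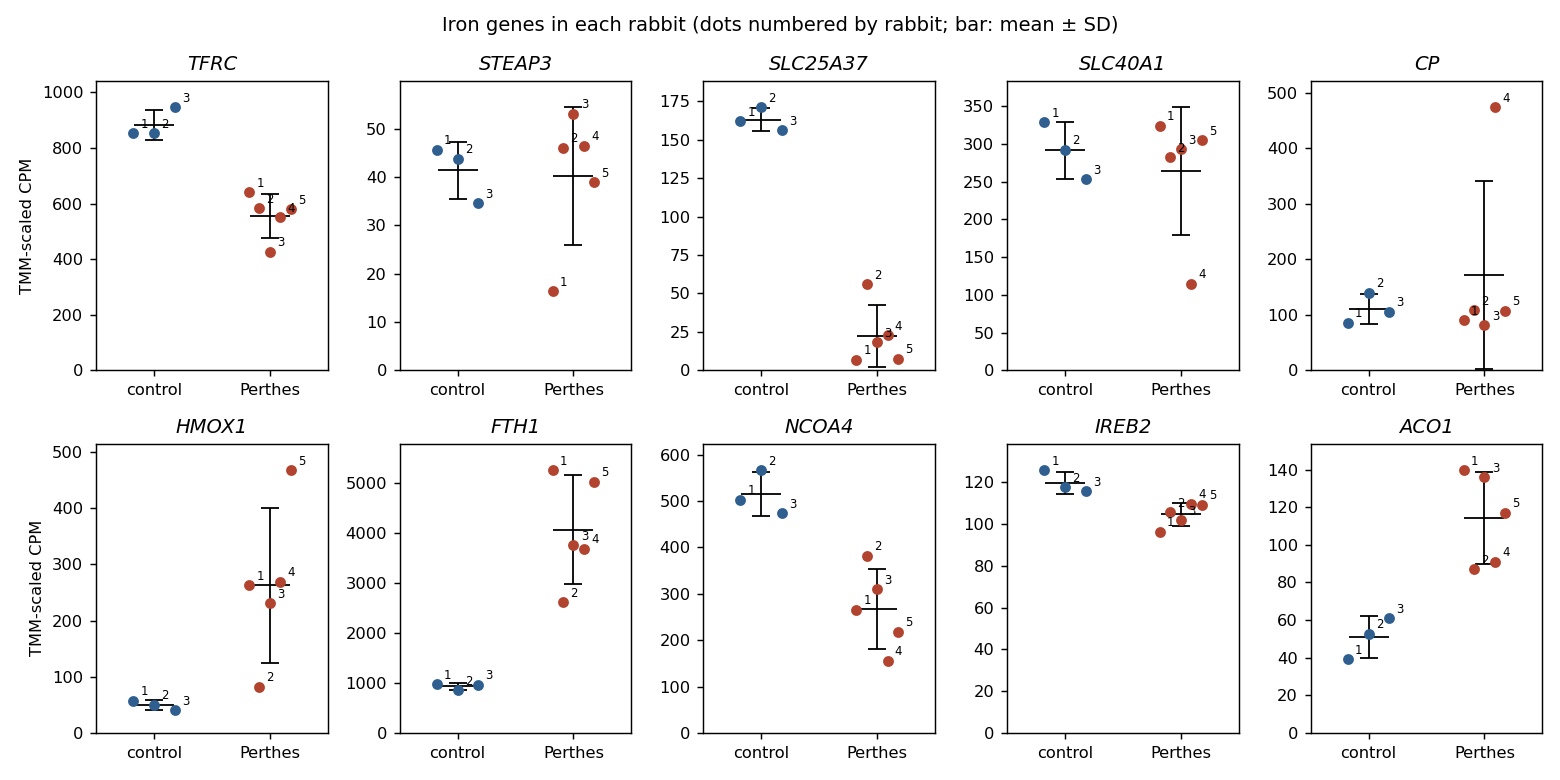
TMM-scaled CPM (y axis, from 0) of the 10 iron genes in 3 control rabbits (blue) and 5 Perthes rabbits (red). Dots carry the rabbit's number, and the horizontal bar with whiskers is the mean ± SD. The groups are apart for *TFRC*, *SLC25A37*, *HMOX1*, *FTH1*, *NCOA4*, *IREB2* and *ACO1*, and Perthes rabbit 4 stands alone for *CP* at 474 CPM and *SLC40A1* at 114 CPM.

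The libraries held from 26757087 to 29461482 counts. The tissue carried the transcripts of cartilage and bone in every rabbit, with *COL2A1* at 47802 ± 8359 CPM (SD, n = 3) in controls and 60439 ± 34821 CPM (SD, n = 5) in Perthes rabbits. It also carried marrow: 20 tested erythroid markers, among them *HBB2* and *SLC4A1*, summed to 26887 to 43674 CPM in controls and to 528, 20903, 3478, 2537 and 849 CPM in Perthes rabbits 1 to 5. All 20 were lower in every Perthes rabbit than in every control, although edgeR called 4 of them at an adjusted p below 0.05. Of all genes tested, 13.9% were apart in this direction and 8.86% were called lower. The 11 tested macrophage markers, led by *LAPTM5*, *CSF1R* and *CD68*, summed to 841 to 1372 CPM in controls and 821 to 2990 CPM in Perthes rabbits. Of them 5 were called higher and 1 lower (*C1QC*, named after its value was seen), where 6.21% and 8.86% of all genes were. In such bulk tissue, fewer cells of a type and less RNA per cell cannot be told apart. Perthes rabbit 4 had the highest sum of cartilage markers, at 164722 CPM, and the lowest sum of macrophage markers.

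*TFRC* (gene 100342561) encodes the receptor that takes up transferrin with its iron. It reached 641, 582, 427, 551 and 579 CPM in Perthes rabbits 1 to 5 and 853, 853 and 946 CPM in controls 1 to 3. Every Perthes rabbit lay below every control, and the Perthes values stayed within 1.5-fold of each other. Perthes rabbits averaged 556 ± 79.4 CPM (SD, n = 5) against 884 ± 53.9 CPM (SD, n = 3) in controls, with a log2 fold change of -0.67 ± 0.19 (SE, edgeR, adjusted p = 0.0443). This call was close to the threshold: the adjusted p in edgeR rose to between 0.0521 and 0.123 when any rabbit other than Perthes rabbit 1 was left out, and to 0.0637 without the filter on low counts. Over the whole table edgeR called 257 genes without control 1 and 0 without control 2, against 2307 with all rabbits. The log2 fold change stayed between -0.72 and -0.59 when single rabbits were left out.

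*SLC25A37* (100345144) encodes mitoferrin 1, which imports iron into the mitochondria of red cell precursors. Its CPM were 6.72, 56.1, 18.2, 23.0 and 7.45 in Perthes rabbits 1 to 5 and 162, 171 and 156 in controls 1 to 3. The controls lay close together, and Perthes rabbits 1 and 5 were the lowest and rabbit 2 the highest of their group. Perthes rabbits averaged 22.3 ± 20.1 CPM (SD, n = 5) and controls 163 ± 7.51 CPM (SD, n = 3), which gave -2.87 ± 0.62 on the log2 scale (SE, edgeR, adjusted p = 0.0192). Rabbit 2 held 50.3% of the summed Perthes CPM of this gene, and without this rabbit the log2 fold change was -3.56. The adjusted p in edgeR passed 0.05 without Perthes rabbit 3 (0.0525), control 1 (0.0667) or control 2 (0.0640). Over the whole table those fits called 1031, 257 and 0 genes.

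*STEAP3* (100354683), the endosomal ferrireductase that works beside the transferrin receptor, was at 16.4, 46.1, 53.2, 46.6 and 39.0 CPM in Perthes rabbits 1 to 5. The controls were at 45.7, 43.9 and 34.6 CPM, inside the range of the Perthes group, in which rabbit 1 was the lowest. The log2 fold change was -0.04 ± 0.33 (SE, edgeR, adjusted p = 0.943), and it was 0.16 without Perthes rabbit 1.

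The 3 uptake genes were also compared with the erythroid markers, as log2 CPM of the gene minus the mean log2 CPM of the 20 markers. That mean was 1.14, 6.95, 4.61, 4.57 and 2.47 in Perthes rabbits 1 to 5 and 8.22, 8.10 and 7.86 in controls 1 to 3, a difference of -4.11 between the group means. Relative to them *TFRC* was at 5.16 ± 2.32 (SD, n = 5) in Perthes rabbits and 1.73 ± 0.27 (SD, n = 3) in controls, a difference of 3.43. For *STEAP3* the difference was 3.98. Both were higher in every Perthes rabbit than in every control (p = 0.0357 by exact permutation, two-sided, which is the lowest value open to 5 and 3 rabbits, and 0.05 after adjustment over 7 such comparisons, at and not below the threshold). The marker mean was itself lower in every Perthes rabbit than in every control, so a gene that changed little would be apart likewise. These p-values therefore say nothing about *TFRC* or *STEAP3* alone. For *SLC25A37* the difference was 0.80, with overlapping groups (exact permutation p = 0.214, adjusted 0.214). Thus *SLC25A37* was ordered among the rabbits much as the erythroid markers were, lowest in Perthes rabbits 1 and 5 and highest in rabbit 2 and the controls, whereas *TFRC* was highest of the Perthes group in rabbit 1, where the markers were lowest. The part that the number of red cell precursors had in the fall of *SLC25A37* and *TFRC* was not tested.

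**Figure D2:**
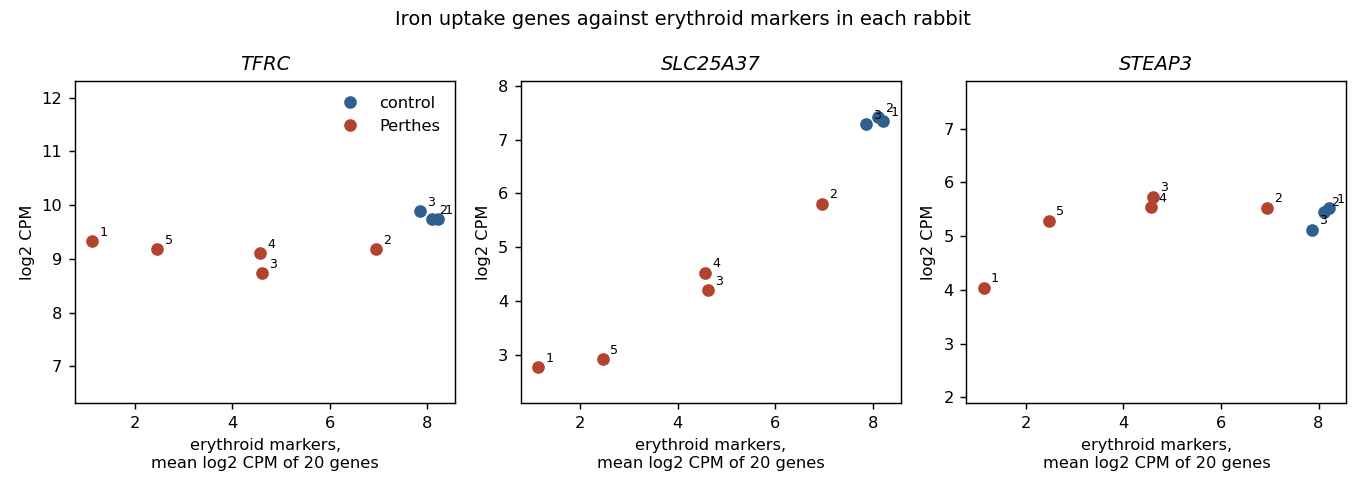
Log2 CPM of *TFRC*, *SLC25A37* and *STEAP3* (y axis, each spanning 6 log2 units) against the mean log2 CPM of 20 erythroid markers (x axis) in control (blue) and Perthes (red) rabbits, numbered. *SLC25A37* and the markers are both lowest in Perthes rabbits 1 and 5, while *TFRC* stays within a narrow band as the markers run from 1.14 to 8.22.

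*FTH1* (100009597) encodes the heavy chain of ferritin, the subunit that oxidizes iron for storage. It was at 5268, 2615, 3765, 3694 and 5038 CPM in Perthes rabbits 1 to 5 and at 979.7, 858 and 966 CPM in controls 1 to 3. The lowest Perthes rabbit, rabbit 2, was well above the highest control. From 935 ± 66.8 CPM in controls (SD, n = 3) it rose to 4076 ± 1087 CPM in Perthes rabbits (SD, n = 5), a log2 fold change of 2.12 ± 0.30 (SE, edgeR, adjusted p = 0.0118). Leaving out single rabbits gave 2.02 to 2.25, and the adjusted p in edgeR passed 0.05 only without control 2 (0.0519), in which case 0 genes of the whole table were called. Ferritin heavy chain genes have processed copies in many mammalian genomes, so the count of *FTH1* depends on how shared reads were divided, although its deposited values were whole numbers in every library. The light chain gene *FTL* (100009254), which was not among the 10, changed by almost as much, from 595 ± 129 CPM in controls (SD, n = 3) to 2458 ± 1268 CPM in Perthes rabbits (SD, n = 5), with a log2 fold change of 2.05 ± 0.46 (SE, edgeR, adjusted p = 0.0218).

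*NCOA4* (100342735) encodes the receptor that delivers ferritin to the lysosome so that its iron is released. Perthes rabbits 1 to 5 were at 266, 382, 309.8, 156 and 218 CPM and controls 1 to 3 at 503, 567 and 474 CPM. No Perthes rabbit reached a control, and rabbit 2 came nearest. The fall from 515 ± 47.5 CPM in controls (SD, n = 3) to 266 ± 86.3 CPM in Perthes rabbits (SD, n = 5) gave a log2 fold change of -0.95 ± 0.27 (SE, edgeR, adjusted p = 0.0474). The adjusted p passed 0.05 without the filter on low counts (0.0565) and without Perthes rabbit 1, 3 or 5 or any one control (0.0755 to 0.153, all from edgeR), while the log2 fold change stayed between -1.12 and -0.81. Of the whole table, 257 genes were called without control 1 and 0 without control 2. The deposited counts of *NCOA4* were not whole numbers, so some of its reads were shared with another gene and its level is uncertain to that extent.

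*HMOX1* (100008919) encodes the inducible heme oxygenase, which frees iron from heme. Its levels were 263, 82.4, 230.3, 269 and 468 CPM in Perthes rabbits 1 to 5 and 57.3, 50.4 and 40.1 CPM in controls 1 to 3. All Perthes rabbits were above the controls, rabbit 2 by the least and rabbit 5 by the most. The rise from 49.3 ± 8.65 CPM in controls (SD, n = 3) to 262 ± 138 CPM in Perthes rabbits (SD, n = 5) was the largest of the 10 genes, with a log2 fold change of 2.41 ± 0.49 (SE, edgeR, adjusted p = 0.0165). In edgeR the adjusted p was 0.0647 without control 1 and 0.0676 without control 2, with log2 fold changes of 2.54 and 2.43. Over the whole table those fits called 257 and 0 genes, against 2307 with all rabbits. The unadjusted p of *HMOX1* in edgeR was 0.00329 and 0.00411 in them. The macrophage markers summed to more than in any control in 4 of the 5 Perthes rabbits. The 10 osteoclast markers did so in all 5, with 2967 to 6050 CPM against 1403 to 2537 CPM in controls. The most abundant were *CTSK*, *MMP9* and *ACP5*. In edgeR 3 of the 10 were called higher, where 6.21% of all genes were. *CTSK* was among them, but *MMP9* (log2 fold change 0.34) and *ACP5* (0.36) were not. The part of these markers in the rise of *HMOX1* and ferritin was not tested. In Perthes rabbit 4, whose macrophage markers summed to less and osteoclast markers to more than in any control, *HMOX1* was at 269 CPM and *FTH1* at 3694 CPM.

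*SLC40A1* (100356292) encodes ferroportin, through which cells release iron. It was at 324, 282, 293, 114 and 305 CPM in Perthes rabbits 1 to 5 and at 329, 293 and 253 CPM in controls 1 to 3. Apart from rabbit 4, the Perthes rabbits lay within the span of the controls. The log2 fold change was -0.14 ± 0.31 (SE, edgeR, adjusted p = 0.783), and it was 0.05 without Perthes rabbit 4. *CP* (100340335), the gene of ceruloplasmin, had 89.9, 108, 80.7, 474 and 107 CPM in Perthes rabbits and 85.5, 139.9 and 105 CPM in controls. Here rabbit 4 was high and held 55.1% of the summed Perthes CPM. The log2 fold change of 0.64 ± 0.61 (SE, edgeR, adjusted p = 0.497) became -0.19 without rabbit 4, so the direction rested on that rabbit. This was also the rabbit with the most cartilage and the least macrophage marker RNA, and the part of these markers in the values of *CP* and *SLC40A1* was not tested.

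Ferroportin and heme oxygenase are known for their work in macrophages, so both genes were set against macrophage markers in the same way as the uptake genes. The mean log2 CPM of the 11 general macrophage markers was 6.64 in Perthes rabbits and 5.71 in controls. Relative to it, *SLC40A1* was at 1.32 ± 0.27 (SD, n = 5) in Perthes rabbits and 2.47 ± 0.09 (SD, n = 3) in controls, a difference of -1.16 with groups that did not overlap (exact permutation p = 0.0357, adjusted 0.05). *HMOX1* was at 1.20 ± 1.07 (SD, n = 5) and -0.10 ± 0.12 (SD, n = 3), a difference of 1.30 (exact permutation p = 0.0714, adjusted 0.0833). The marker mean was itself higher by 0.93 in Perthes rabbits, while the log2 fold change of *SLC40A1* was -0.14. Most of the difference given for *SLC40A1* thus came from the markers. The 10 markers of resident marrow macrophages, among them *FOLR2*, *VCAM1* and *VSIG4*, went both ways: *FOLR2* and *VSIG4* were called higher and *TIMD4*, *CD5L* and *CLEC4G* lower, these last named after their values were seen. *TIMD4* was at 19.6 to 25.8 CPM in controls and at most 0.374 CPM in Perthes rabbits, *CD5L* at 34.3 to 56.4 CPM and at most 4.42 CPM, and *CLEC4G* at 3.19 to 16.0 CPM and at most 1.80 CPM. The mean log2 CPM of the list, to which these low genes count as much as the abundant ones, was 2.63 in Perthes rabbits and 4.49 in controls, whereas its summed CPM overlapped, at 125 to 546 and 332 to 432. Against the log mean *SLC40A1* was higher by 1.64 and *HMOX1* by 4.10 (exact permutation p = 0.0357 and adjusted 0.05 for each), and no comparison with the sum was made. That log mean was itself lower in every Perthes rabbit than in every control, so these p-values say nothing about *SLC40A1* or *HMOX1* alone. None of the 7 comparisons with markers was below an adjusted p of 0.05.

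The iron regulatory proteins are encoded by a pair of related genes. *ACO1* (100009154), whose product also serves as the cytosolic aconitase when it holds an iron-sulfur cluster, reached 139.8, 87.0, 136, 91.1 and 117 CPM in Perthes rabbits 1 to 5. In controls 1 to 3 it was at 39.3, 52.8 and 61.1 CPM, below every Perthes rabbit. It rose from 51.1 ± 11.0 CPM in controls (SD, n = 3) to 114 ± 24.6 CPM in Perthes rabbits (SD, n = 5), a log2 fold change of 1.16 ± 0.23 (SE, edgeR, adjusted p = 0.0164). Without control 1 or control 2 the adjusted p in edgeR was 0.0667 or 0.0664, where 257 and 0 genes of the whole table were called. *IREB2* (100341900), whose protein is degraded when iron is plentiful, was at 96.3, 106, 102, 109.8 and 109 CPM in Perthes rabbits and 126, 118 and 116 CPM in controls. The groups did not overlap, yet the means of 105 ± 5.62 CPM (SD, n = 5) and 119.8 ± 5.38 CPM (SD, n = 3) differed little, with a log2 fold change of -0.20 ± 0.13 (SE, edgeR, adjusted p = 0.338).

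**Figure D3:**
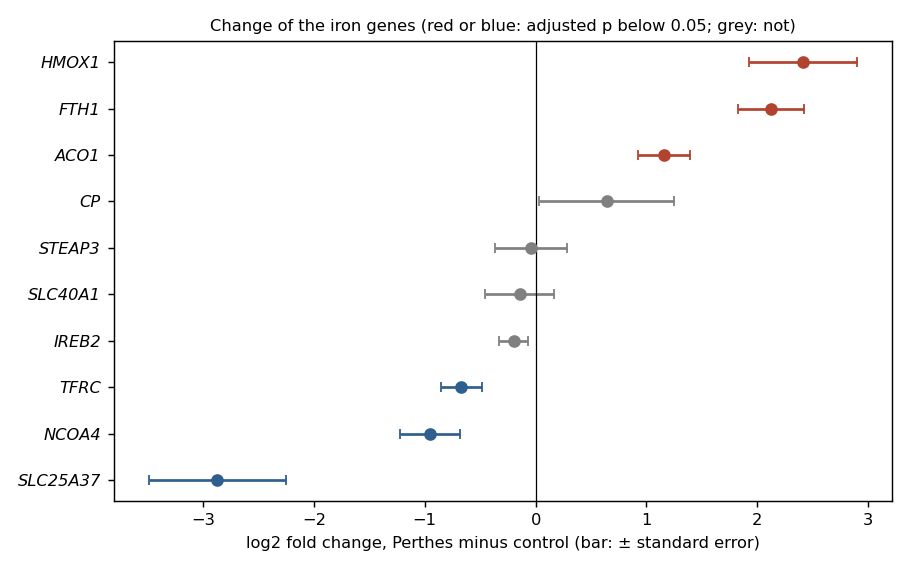
Log2 fold changes, Perthes minus control (x axis), of the 10 iron genes from edgeR, with standard errors as bars. Genes at an adjusted p below 0.05 are red where higher and blue where lower, and the others are grey. *HMOX1*, *FTH1* and *ACO1* lie between 1.16 and 2.41, and *SLC25A37* lies at -2.87.

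Ratios of counts within a library do not depend on the scaling between libraries, and they are given here as a description chosen after the values were seen. For every 100 counts of *FTH1* there were 12.2, 22.3, 11.3, 14.9 and 11.5 counts of *TFRC* in Perthes rabbits 1 to 5 and 87.1, 99.4 and 97.9 in controls 1 to 3. The balance between the uptake receptor and ferritin was thus lower in all 5 Perthes rabbits, with rabbit 2 the least far from the controls. *NCOA4* had 4.22 to 14.6 counts per 100 of *FTH1* in Perthes rabbits and 49.1 to 66.1 in controls. *SLC25A37* had 1.05 to 9.63 counts per 100 of *TFRC* in Perthes rabbits and 16.5 to 20.1 in controls. *ACO1* had 82.2 to 145 counts per 100 of *IREB2* in Perthes rabbits and 31.2 to 52.8 in controls. These ratios were apart between the groups in every rabbit. For *TFRC* and *NCOA4* per *FTH1* and *ACO1* per *IREB2*, the genes of each pair were already apart in opposite directions. Their ratios could therefore not overlap, and their separation adds nothing to that of the single genes. The ferritin chains kept overlapping proportions, with 29.8 to 82.4 counts of *FTL* per 100 of *FTH1* in Perthes rabbits and 57.2 to 75.4 in controls.

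**Figure D4:**
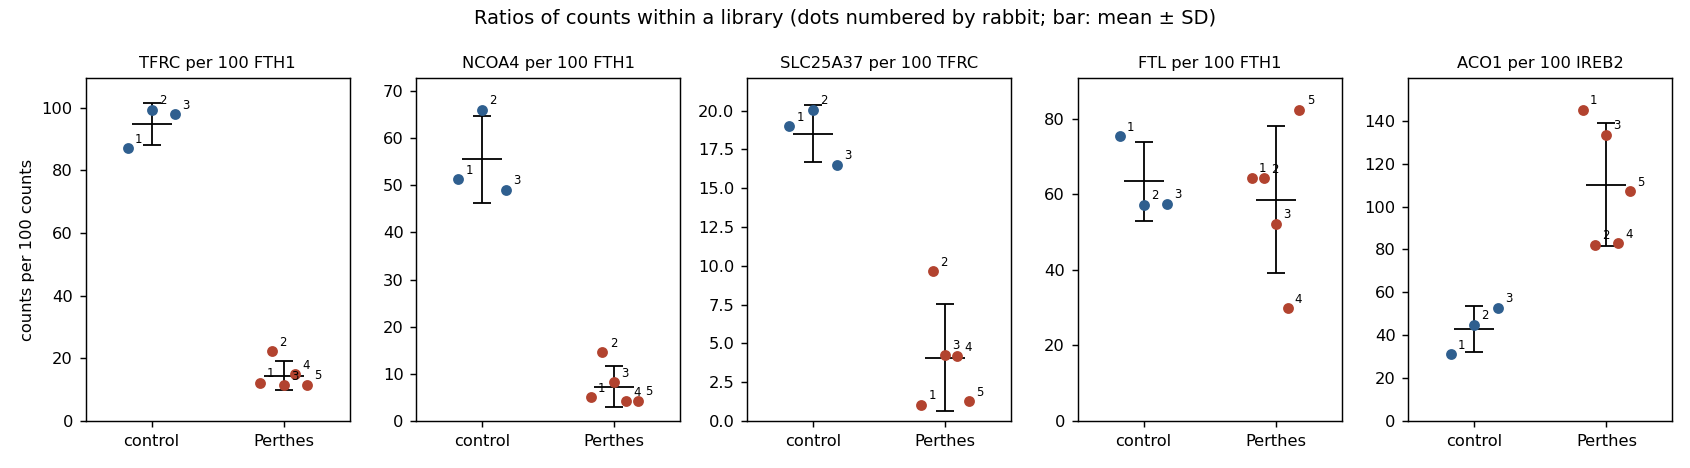
Counts of a gene per 100 counts of another in the same library (y axis, from 0) in control (blue) and Perthes (red) rabbits, numbered, with mean ± SD. *TFRC* and *NCOA4* per *FTH1* and *SLC25A37* per *TFRC* are lower in every Perthes rabbit, *ACO1* per *IREB2* is higher, and *FTL* per *FTH1* overlaps.

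Among the Perthes rabbits, rabbit 2 was nearest to the control mean for 5 of the 6 genes that passed the test, and rabbit 1 was for *TFRC*. Rabbit 2 also had the most erythroid marker RNA of its group. The spread within the Perthes group differed between genes. The highest Perthes rabbit exceeded the lowest by 1.14-fold for *IREB2*, 1.5-fold for *TFRC*, 2.01-fold for *FTH1* and 8.35-fold for *SLC25A37*, whereas the controls were within 1.64-fold of each other for each of the 10 genes.

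Other genes of iron handling were taken from lists of 72 symbols, of which 62 were in the table and 60 were tested. Of these, 6 were called higher and 8 lower, where 6.21% and 8.86% of all genes were, with a median log2 fold change of 0.05. With library totals in place of TMM factors the counts were 6 and 13. In transport, 3 of 18 tested genes rose. They were the STEAP family gene *STEAP1* (log2 fold change 2.02), the ferritin receptor gene *SCARA5* (1.82) and *LRP1* (1.21). For *SCARA5* the groups overlapped, with Perthes rabbit 1 at 7.363 CPM and control 3 at 7.384 CPM. The product of *LRP1* takes up heme bound to hemopexin. *LCN2*, which encodes a protein that binds bacterial siderophores, fell by 3.87 on the log2 scale, and *SLC25A28*, the gene of mitoferrin 2, fell by 0.91. *LCN2* is a product of granulocytes, whose 9 tested markers summed to 5241 to 19764 CPM in controls and 24.0 to 1598 CPM in Perthes rabbits, and their part in its fall was not tested. The lower calls became 1, 2 and 5 without Perthes rabbit 3, Perthes rabbit 5 and control 3. Without control 1 or control 2, edgeR called 0 of the 60 in either direction, while 9 were higher in each fit and 14 or 13 lower at an unadjusted p below 0.05.

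*TFR2*, the second transferrin receptor gene, which erythroid cells use, had 31.8, 25.9 and 13.6 CPM in controls and 0.135 to 8.99 CPM in Perthes rabbits, with no overlap and a log2 fold change of -3.12 that missed the threshold (SE 0.95, edgeR, adjusted p = 0.0553). *SLC11A2*, the gene of the endosomal iron exporter DMT1, was at -0.38 (edgeR, adjusted p = 0.194) and its macrophage relative *SLC11A1* at 0.95 (edgeR, adjusted p = 0.434). *CD163*, the receptor for hemoglobin bound to haptoglobin, was at 0.19 (edgeR, adjusted p = 0.740). In the storage list *FTL* was the 1 gene of 4 that passed the test, where 6.21% of all genes were called higher.

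Of 9 tested genes of heme recycling and heme transport, 2 rose and 1 fell, where 6.21% of all genes were called higher and 8.86% lower. The risers were *FLVCR2*, at 2.10 on the log2 scale (SE 0.39, edgeR, adjusted p = 0.0136), and the folate and heme carrier gene *SLC46A1*, at 2.06 ± 0.41 (SE, edgeR, adjusted p = 0.0154). *BLVRB*, which encodes a biliverdin reductase, fell from 242 ± 55.5 CPM in controls (SD, n = 3) to 103 ± 30.9 CPM in Perthes rabbits (SD, n = 5). Among 11 tested genes of iron sensing and hepcidin control, *ERFE*, the gene of the erythroid hormone erythroferrone, was the 1 that passed the test, at -1.56 ± 0.45 (SE, edgeR, adjusted p = 0.0479). The hepcidin gene *HAMP* had at most 1 count in any library and was not tested.

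Iron-sulfur cluster assembly, the other main use of mitochondrial iron, had 4 of 18 tested genes lower and 0 higher in edgeR (8 and 1 at an unadjusted p below 0.05), with a median log2 fold change of -0.30. Among them were *GLRX5* at -1.54, *BOLA3* at -1.12 and *LYRM4* at -0.57. Of all genes tested, 8.86% were called lower and 6.21% higher. In heme synthesis, which takes up the iron that mitoferrin 1 imports, 8 of 11 tested genes were lower and 0 higher in edgeR (9 and 0 at an unadjusted p below 0.05), with a median of -1.87. *FECH*, which inserts iron into the heme ring, fell from 224 ± 23.6 CPM in controls (SD, n = 3) to 31.9 ± 36.5 CPM in Perthes rabbits (SD, n = 5), with a log2 fold change of -2.81 close to that of *SLC25A37*. *ALAS2*, the first enzyme of erythroid heme synthesis, had a log2 fold change of -2.97 but missed the threshold (SE 0.97, edgeR, adjusted p = 0.0692), with Perthes rabbit 2 holding 67.4% of the summed Perthes CPM. All 20 erythroid markers were lower too, as given above, and their part in these values was not tested. In edgeR the 8 heme synthesis calls became 4 without Perthes rabbit 4, 1 without control 1, Perthes rabbit 3 or Perthes rabbit 5, and 0 without control 2, where 9 genes had an unadjusted p below 0.05.

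**Figure D5:**
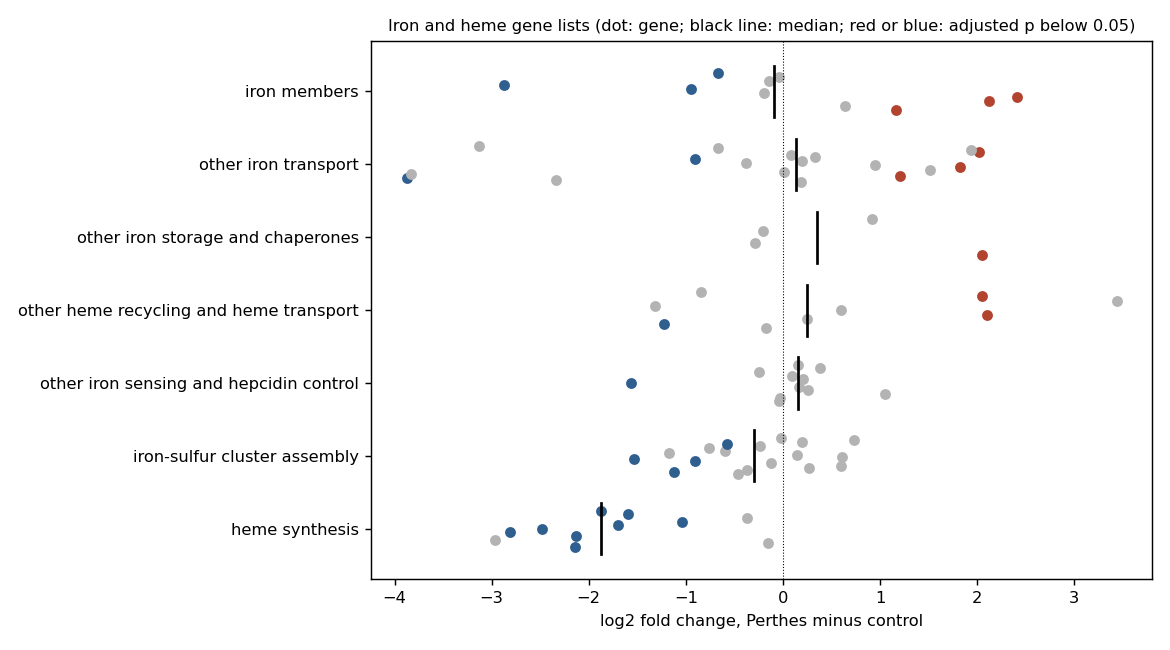
Log2 fold changes, Perthes minus control (x axis), of every tested gene in 7 lists of iron and heme genes (y axis), with the list median as a black line. Dots are red or blue where the adjusted p in edgeR was below 0.05 and grey otherwise. Heme synthesis lies to the left of 0 with a median of -1.87, while the 10 iron genes and the other lists hold values on both sides.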

How the data were processed

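Reads were filtered with SOAPnuke. The submitters' processing notes name HISAT2 2.0.4 (alignment), RSEM 1.1.17 and HTSeq 1.99.2. Expected counts, not normalized, were deposited for each gene and rabbit. Another 8 columns hold the same values and were not used, and the deposited miRNA table was not used. Expected counts were rounded, and up to 10.7% of the values in a library were not whole. The 15305 genes kept by filterByExpr were scaled by TMM and tested in edgeR 4.0.16 under R 4.3.3, with Benjamini-Hochberg adjustment over all of them, and the standard error is the size of the log2 fold change over the square root of F. Log2 CPM used a prior count of 2. Comparisons with markers used exact permutation over 56 divisions of the rabbits. The genes and lists were chosen with earlier results of these data known. Named genes were the 10 iron genes, genes of the other iron lists with an adjusted p below 0.05, 9 genes taken whatever their values and the most abundant markers. Some genes that this rule names are not reported here. The sample whose code ends in 3 and whose title says replicate 2 was used as control 3. No batch is named in the labels. The libraries held 26757087 to 29461482 counts, so for these genes the precision was limited by the spread between rabbits. The test was checked on simulated counts. Alternatives were DESeq2 1.42.0, other scalings and filters, the replicate number as a block and leaving out each rabbit. Genome coordinates were not used here.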

Additional observations from a re-analysis of the deposited data

Results flagged for a closer look

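Among the 5 Perthes rabbits, 22 sets of values were examined for a rabbit far from the others, and 3 had a gap to the nearest rabbit above 0.71 of the whole range, where chance gives about 1 in 20. Perthes rabbit 4 had 474 CPM of *CP*, with a gap of 0.93 of the range, and 114 CPM of *SLC40A1*, with a gap of 0.801. In the same rabbit the cartilage markers summed to 164722 CPM, against 41835 to 85984 CPM in the other Perthes rabbits, and the macrophage markers to 821 CPM, against 1757 to 2990 CPM. Their part in these values was not tested. Relative to resident marrow macrophage markers, *SLC40A1* was lowest in Perthes rabbit 2, at 4.41 on the log2 scale, with a gap of 0.746.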

How the results depend on the processing

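With DESeq2, DESeq2's size factors, library totals or a minimum of 10 counts in every library, each of the 10 iron genes kept its direction and its side of the threshold, apart from *CP*, for which DESeq2 gave no p. Without a filter on low counts, 1 iron gene was called lower in place of 3. A fit with a replicate block called 0 iron genes higher or lower (3 each at an unadjusted p below 0.05), 0 of the other iron genes (7 higher and 12 lower at an unadjusted p below 0.05), 0 heme synthesis genes (8) and 0 genes of the whole table. In that fit Perthes rabbits 4 and 5 have a number of their own and add nothing to the contrast, *SLC40A1* turned to 0.0467 and *CP* to -0.23. Same-numbered rabbits deviated from their group means with correlations of -0.317, 0.161 and -0.238, so the numbers were not taken as pairs. DESeq2 called 10 of the other iron genes higher and 13 lower, and library totals gave 13 lower, against 6 and 8, while over the whole table these settings called 3636 and 2383 genes against 2307. Leaving out single rabbits gave 0 to 3 iron genes called higher and 0 to 2 lower, 0 to 7 other iron genes higher and 0 to 12 lower, and 0 to 9 heme synthesis genes lower. The same fits called 0 to 2690 genes of the whole table. Over these fits the log2 fold change of *STEAP3* ran from -0.16 to 0.16, of *SLC40A1* from -0.24 to 0.0461 and of *CP* from -0.19 to 0.85. The cause of these changes was not tested. The 7 comparisons with markers kept their direction under each alternative run. With DESeq2's size factors or a prior count of 0.5 they stayed at or above an adjusted p of 0.05. With a rabbit left out, the exact permutation p could not be below 0.0571 (a Perthes rabbit) or 0.0952 (a control). Those runs could therefore not pass the threshold and say nothing about it.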

Other observations

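Some genes of the iron lists that did not pass the test had groups apart and are given here after their values were seen. The ferrireductase gene *STEAP2* was at 17.7 to 50.9 CPM in Perthes rabbits and 1.86 to 16.8 CPM in controls, with a log2 fold change of 1.94 ± 0.64 (SE, edgeR, adjusted p = 0.0715). *MELTF*, the gene of the membrane-bound transferrin homolog melanotransferrin, was at 43.2 to 188 CPM and 26.7 to 39.8 CPM, at 1.52 ± 0.52 (SE, edgeR, adjusted p = 0.0779). *HMOX2*, the constitutive heme oxygenase gene, was at 24.6 to 32.3 CPM and 15.3 to 23.3 CPM, at 0.60 ± 0.18 (SE, edgeR, adjusted p = 0.0564). The groups overlapped for *HPX*, the gene of the heme scavenger hemopexin, which was at 28.7 CPM in Perthes rabbit 4, at 0.637 to 1.43 CPM in the other 4 Perthes rabbits and at 0.25 to 0.776 CPM in controls.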
